A study of Mus musculus with 9 samples.

Results

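The enzymes described here conjugate, reduce or oxidise reactive molecules with the help of glutathione or by oxidising aldehydes. Membership followed a rule on gene symbols, which was chosen with earlier results of these data known. The rule takes in every gene of the glutathione S-transferase classes (Gsta, Gstk, Gstm, Gsto, Gstp, Gstt, Gstz) and the microsomal transferases (Mgst). The glutathione peroxidases (Gpx), the aldehyde dehydrogenases (Aldh) and the glutathione synthesis genes Gclc, Gclm and Gss also belong to it. On the array the members are 56 genes, read by 101 probes, of 19057 gene symbols in the whole series. Gsr, the reductase that recycles glutathione, belongs to the same rule and was not analysed here.

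Total RNA of mouse ovaries in 3 groups was hybridised to Illumina BeadChips. The SSCTR samples are ovaries from mice that received a transplant of spermatogonial stem cells, the cells from which sperm production in the testis is renewed. The POF samples come from a model of premature ovarian failure, and the WT samples are wild-type controls. All samples are labelled as strain C57BL/6. The labels give no age, no way of inducing ovarian failure, no time after transplantation and no allele, and they do not say whether the recipients had ovarian failure or whether replicates are separate animals. The p-values therefore measure the spread between these samples, which may be technical. The labels number 3 replicates a group, but the deposited column of replicate 1 was computed from replicates 2 and 3, so each group holds 2 arrays, and that number limits the precision of every value.

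Glutathione is a tripeptide made from glutamate, cysteine and glycine, with glutamate-cysteine ligase as the limiting step. Transferases attach it to electrophiles such as lipid aldehydes and drug metabolites, peroxidases use it to reduce hydrogen peroxide and lipid peroxides, and aldehyde dehydrogenases oxidise aldehydes to acids. Many genes of the glutathione system are targets of the transcription factor NRF2, which binds antioxidant response elements and is held back by KEAP1. In the ovary these enzymes are known from steroid-producing cells and oocytes. The retinal dehydrogenases among them make retinoic acid, a signal that has been linked to the start of meiosis in fetal germ cells.

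Of the 56 genes, 47 were detected on at least 2 of the 6 arrays and were tested, and 38 of these were above background on all 6 arrays. The 9 genes that were not detected on 2 arrays were Gclc (the catalytic subunit of glutamate-cysteine ligase), Aldh3b2, Aldh7a1, Aldh8a1, Aldh9a1, Gpx5, Gpx6, Gstm3 and Gstt4. For these only a bound at background can be given in each group. All values below are log2 intensities after background correction and quantile normalization, a change is a difference of such values, and a gene with several detected probes is represented by its brightest one. Levels of different genes are not set against each other, because probes differ in brightness. In whole ovaries, fewer cells of a type and less RNA per cell cannot be told apart.

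The groups also differed in markers of the cells that an ovary sample can hold. The 10 oocyte markers had a summed linear intensity of 6106 and 6134 on the SSCTR arrays, 3285 and 3146 on the POF arrays, and 7639 and 8178 on the WT arrays. The 12 measured macrophage markers summed to 4419 and 3823 in SSCTR, 11120 and 14425 in POF, and 4480 and 4819 in WT. The 9 measured markers of surface epithelium and mesothelium summed to 1674 and 1445 in SSCTR, 5303 and 6197 in POF, and 2129 and 2014 in WT. The 7 measured oviduct epithelium markers summed to 395 and 347 in SSCTR, 3566 and 3042 in POF, and 462 and 459 in WT. Such a sum can be led by 1 bright marker: in POF against WT the median log2 change of these 7 was 0.64 and the largest 6.56. The oviduct glycoprotein Ovgp1 was below background on both SSCTR arrays and on 1 of 2 WT arrays. Foxj1, Pax8 and Spag6 of that list were not detected. The POF arrays did not overlap either other group in any of these 4 sums. H2-Ea, a class II histocompatibility gene that the C57BL/6 strain carries as a null allele, had log2 intensities of 7.26 and 7.33 in SSCTR and 5.94 and 7.61 in WT, and was below background on both POF arrays (4.33 and 4.29). The signal in SSCTR and WT departs from their C57BL/6 label, while its absence in POF matches that label. For POF against SSCTR and WT, a difference of strain and a difference of group cannot be told apart.

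The promoters of 4 members are shown because these are the genes whose RNA differed both in POF against WT and in SSCTR against POF. Each sequence holds the 250 bases before the annotated transcript start, written 5′ to 3′ along the gene, from RefSeq (GRCm38.p6), and capitals mark a match to the core of the antioxidant response element, TGACNNNGC, on either strand.
Gsta3, chr1:21240335-21240584, plus strand: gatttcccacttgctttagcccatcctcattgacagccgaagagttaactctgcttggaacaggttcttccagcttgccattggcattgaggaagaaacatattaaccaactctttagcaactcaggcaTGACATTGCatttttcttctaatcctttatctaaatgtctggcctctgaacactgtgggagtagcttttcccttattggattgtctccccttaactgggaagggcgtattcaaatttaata
Gstm6, chr3:107953467-107953716, minus strand: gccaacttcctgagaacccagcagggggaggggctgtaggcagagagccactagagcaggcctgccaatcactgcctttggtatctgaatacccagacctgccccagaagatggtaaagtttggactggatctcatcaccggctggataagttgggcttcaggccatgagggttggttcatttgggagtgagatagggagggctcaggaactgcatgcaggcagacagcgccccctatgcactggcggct
Aldh1a2, chr9:71215539-71215788, plus strand: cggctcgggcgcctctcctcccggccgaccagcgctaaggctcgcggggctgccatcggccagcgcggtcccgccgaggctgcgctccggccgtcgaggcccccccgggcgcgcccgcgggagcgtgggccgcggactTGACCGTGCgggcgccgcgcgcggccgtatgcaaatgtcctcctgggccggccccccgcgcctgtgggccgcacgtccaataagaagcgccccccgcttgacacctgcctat
Gpx7, chr4:108406714-108406963, minus strand: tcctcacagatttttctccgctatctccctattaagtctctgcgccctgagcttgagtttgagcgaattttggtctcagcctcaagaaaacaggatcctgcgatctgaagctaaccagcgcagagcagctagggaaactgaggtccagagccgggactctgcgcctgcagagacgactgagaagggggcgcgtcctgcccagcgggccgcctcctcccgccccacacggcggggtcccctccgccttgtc
The promoter of Gsta3 held TGACATTGC at 121 to 113 bases before the start and that of Aldh1a2 held TGACCGTGC at 112 to 104 bases before it. The letters were not found in the windows of Gstm6, which has 3 annotated starts of which the farthest upstream was used, and Gpx7. RefSeq promoters were matched for 47 of the 56 members, with 61 promoters in all, and 11.5% of these held the core against 10.2% of all 32851 mouse promoters. The 7 members with a match were Aldh1a2, Aldh9a1, Gclm, Gsta3, Gstm5, Gstm7 and Mgst1. A xenobiotic response element core, GCGTG, was found in 31.1% of member promoters against 28.2% of all, TATAAA in 8.2% against 12.4%, and CCAAT in 65.6% against 33.8%, each on either strand. Neighbouring family members share sequence, and a match is a description of letters.

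Most calls among these enzymes lay between SSCTR and POF. In SSCTR against POF, 12 of the 47 tested genes passed the threshold (adjusted p under 0.05 over all 13872 features), which is 25.5% against 12.6% of all features. Of these, 3 were higher in SSCTR (6.38%, against 5.33% of all features) and 9 were lower (19.1%, against 7.25%). Gsta3, Aldh1a2, Gstt3, Aldh1a7, Gstm1, Aldh3b1, Gstm7, Gstm6 and Gpx3 fell, and Gpx7, Mgst3 and Aldh1l1 rose. The median log2 change of the 47 genes was -0.21, against 0.03 over all features. The count was 6 without POF replicate 2, 5 without POF replicate 3, 6 without SSCTR replicate 2 and 6 without SSCTR replicate 3.

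In POF against WT, 4 of 47 genes passed (8.51%, against 11.9% of all features). Gstm6, Gsta3 and Aldh1a2 were higher in POF (3 genes, against a background of 6.98%) and Gpx7 was lower (1 gene, against 4.96%). With an offset of 50 in the background correction the split was 6 higher and 1 lower, while 15.7% of all features passed. Without background correction the split was 6 higher and 2 lower, while 16% of all features passed. The median change was 0.04, against -0.03 over all features. These 4 genes also passed in SSCTR against POF, each in the opposite sign, and both comparisons share the POF arrays.

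In SSCTR against WT, 2 of 47 genes passed (4.26%, against 3.31% of all features), Gstm6 and Mgst3, both higher in SSCTR (background 1.81% higher and 1.50% lower). With the authors' normalized values, as without background correction, 2 were higher and 4 lower, and with an offset of 50 the split was 2 and 2. The median change was -0.15, against -0.01 over all features. The count fell with any single array left out, which leaves 1 array in a group, and so did the share of all features.

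**Figure D1:**
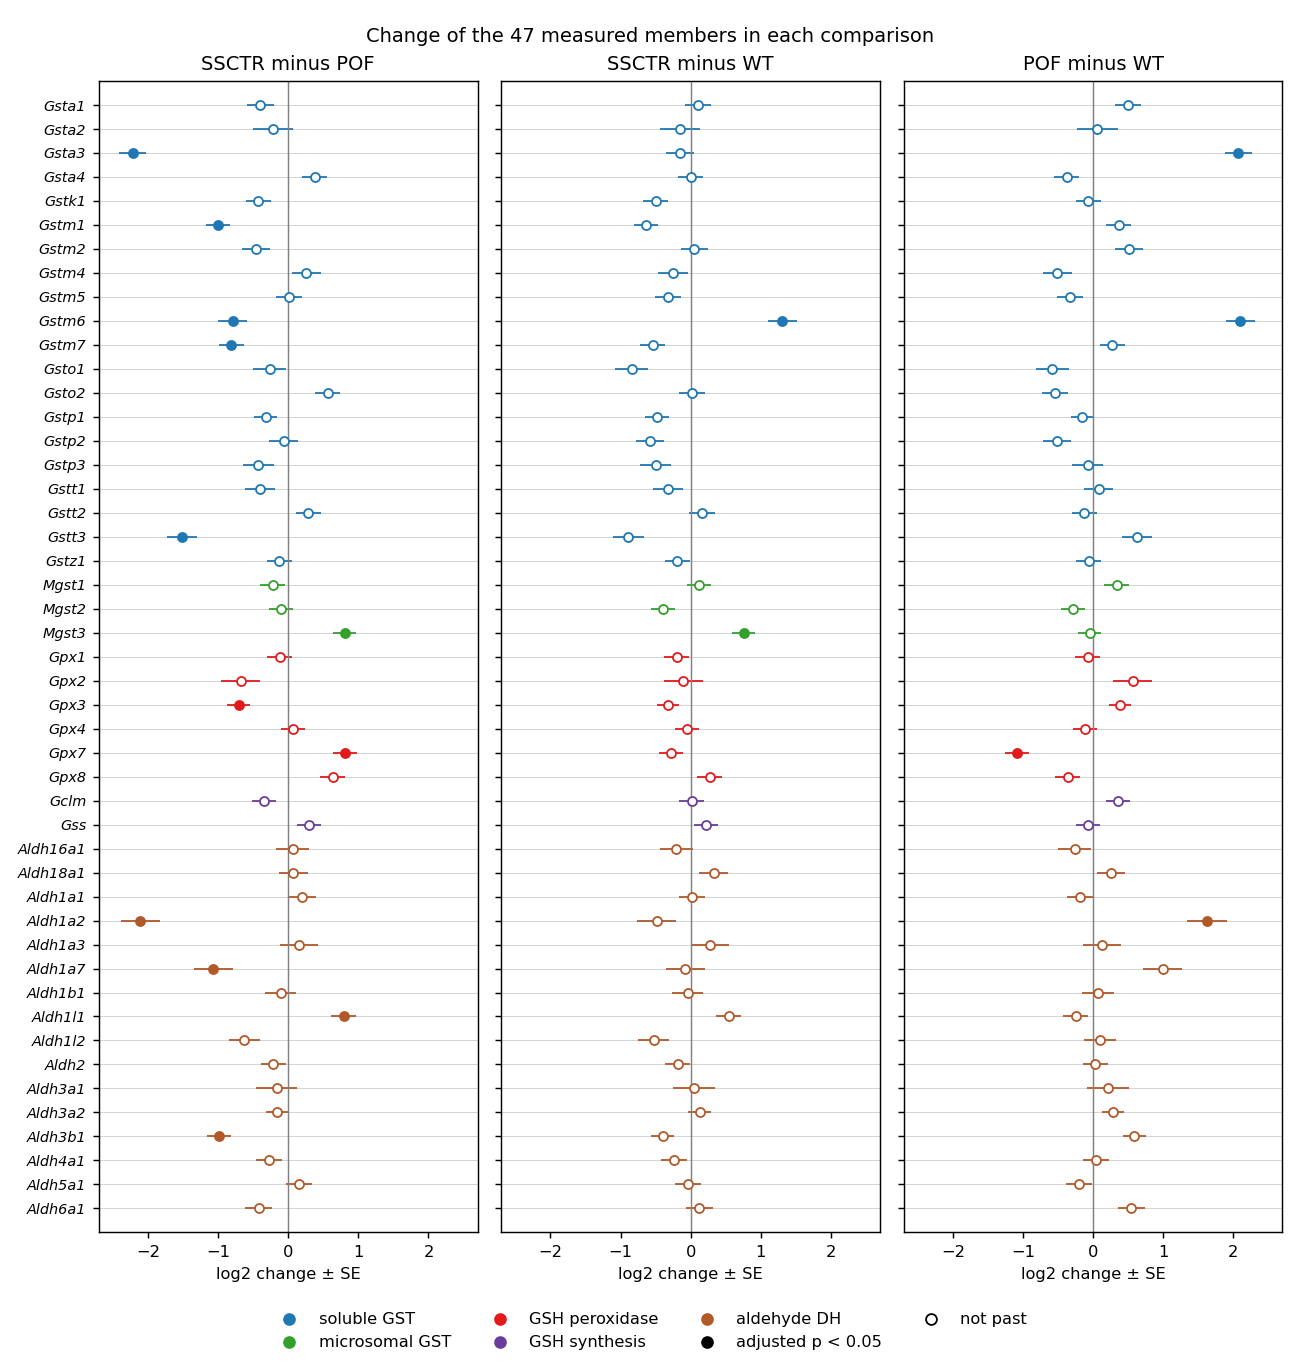
Log2 change with its standard error for the 47 measured genes, in SSCTR minus POF (left), SSCTR minus WT (middle) and POF minus WT (right), coloured by enzyme family, with filled points where the limma adjusted p was under 0.05. Most points lie near 0, and Gsta3, Gstm6 and Aldh1a2 stand far to the right in POF minus WT.

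The measured glutathione synthesis genes did not pass in limma in any comparison, nor at an unadjusted p under 0.05. Gclm, the modifier subunit of glutamate-cysteine ligase, averaged 6.71 ± 0.18 in SSCTR, 7.05 ± 0.04 in POF and 6.69 ± 0.11 in WT (SD, n = 2 each). Its log2 change was -0.34 ± 0.17 (SE) in SSCTR against POF and 0.36 ± 0.17 in POF against WT. Gss, the synthetase that adds glycine, averaged 6.22 ± 0.14 in SSCTR, 5.92 ± 0.09 in POF and 6.00 ± 0.13 in WT, and its other detected probes changed by between -0.34 and 0.38 over the comparisons, none past the threshold.

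Among the alpha class transferases, Gsta3 rose in POF and the other 3 members did not pass. Gsta3 is known in the mouse for conjugating aflatoxin epoxide. Gsta3 had 6.91 and 6.73 on the SSCTR arrays, 8.84 and 9.24 on the POF arrays, and 6.86 and 7.07 on the WT arrays. Both POF arrays lay above all other arrays, while SSCTR and WT overlapped. The fold was 4.66 lower in SSCTR than in POF (log2 change -2.22 ± 0.20 SE, limma adjusted p = 0.000221) and 4.21 higher in POF than in WT (2.07 ± 0.20, adjusted p = 0.000398). In SSCTR against WT the change was -0.15 ± 0.20 (adjusted p = 0.770). Both Gsta3 calls held without any single array. A second Gsta3 probe was below background in all groups. Gsta4, which conjugates the lipid aldehyde hydroxynonenal, averaged 9.78 ± 0.15 in SSCTR, 9.40 ± 0.11 in POF and 9.78 ± 0.13 in WT, without a call. Gsta1 was above background only on the POF arrays (4.88 and 5.21), and Gsta2 on both POF arrays, 1 SSCTR array and 1 WT array.

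The mu class genes lie side by side on chromosome 3, in RefSeq (GRCm38.p6), in the order Gstm5, Gstm7, Gstm6, Gstm3, Gstm2, Gstm1 and Gstm4, and 6 of the 7 were measured. They moved unequally. Gstm6 was the 1 member that passed as higher than WT in both other groups, with 8.83 and 9.03 on the SSCTR arrays, 9.52 and 9.93 on the POF arrays, and 7.47 and 7.78 on the WT arrays. None of the groups overlapped. It was 4.28-fold higher in POF than in WT (2.10 ± 0.21 SE, limma adjusted p = 0.000483) and 2.48-fold higher in SSCTR than in WT (1.31 ± 0.21, adjusted p = 0.0135). Between SSCTR and POF it was 1.73-fold lower in SSCTR (-0.79 ± 0.21, adjusted p = 0.0395). The POF rise held without any single array; the call in SSCTR against POF ended without any 1 of the 4 arrays compared (adjusted p = 0.0540 to 0.213), as did that in SSCTR against WT (adjusted p = 0.0503 to 0.108). Both other Gstm6 probes were higher in POF than in WT, by 1.79 (adjusted p = 0.00151) and 1.92 (adjusted p = 0.00478) in the limma fit of every probe. In SSCTR against WT they changed by 1.03 (adjusted p = 0.0477) and 1.20 (adjusted p = 0.0829), and in SSCTR against POF, where neither passed, by -0.76 (adjusted p = 0.0616) and -0.72 (adjusted p = 0.178).

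Gstm1, a major mu class transferase of the liver, and Gstm7 fell in SSCTR against POF. Gstm1 had 9.55 and 9.73 in SSCTR, 10.70 and 10.58 in POF, and 10.19 and 10.37 in WT, so the groups were in 3 separate steps. Gstm1 fell 2.01-fold (SE of the log2 change 0.17, adjusted p = 0.00645), and in SSCTR against WT the change was -0.64 ± 0.17 (adjusted p = 0.0914). Against WT it passed under several alternatives, among them an offset of 50 (adjusted p = 0.0194) and a mean-variance trend in the prior (adjusted p = 0.00616). In POF against WT the Gstm1 change was 0.36 ± 0.17 (limma adjusted p = 0.224). A second, dim Gstm1 probe, above background on 1 SSCTR and 1 POF array, changed by 0.06 in SSCTR against POF. Gstm7 had 6.89 and 6.82 in SSCTR, 7.50 and 7.83 in POF, and 7.38 and 7.40 in WT, a 1.75-fold fall in SSCTR against POF (-0.81 ± 0.18, adjusted p = 0.0199). That call ended without POF replicate 3, SSCTR replicate 2 or SSCTR replicate 3 (adjusted p = 0.0700 to 0.123). Gstm2 averaged 13.65 ± 0.16 in SSCTR, 14.11 ± 0.17 in POF and 13.59 ± 0.23 in WT. Its brightest probe did not pass in any comparison, and 1 of its other probes was 0.82 lower in SSCTR than in POF (adjusted p = 0.0203 in the fit of every probe). Gstm5 averaged 7.79 ± 0.25 in SSCTR, 7.78 ± 0.05 in POF and 8.11 ± 0.10 in WT, and Gstm4, below background on both POF arrays, did not pass. The mu class genes are close relatives, and binding of a probe to RNA of a neighbour was not tested.

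Of the theta class, Gstt3 fell in SSCTR against POF. It had 5.06 and 4.77 in SSCTR, 6.54 and 6.31 in POF, and 6.04 and 5.56 in WT, with no overlap between the groups. The fall was 2.86-fold (-1.51 ± 0.22 SE, limma adjusted p = 0.00256), with 1 of 2 SSCTR arrays above background, and the call held without any single array. Its size depended on the background correction: the log2 change was -0.60 without it, a 1.52-fold fall, -0.60 with the authors' values and -0.90 with an offset of 50, with adjusted p = 0.00123 to 0.00294. In SSCTR against WT the change of -0.89 ± 0.22 had an adjusted p of 0.0690. On their brightest probes, Gstt1 and Gstt2 changed by between -0.40 and 0.29 over the 3 comparisons, without a call. The probes of Gstt2 differed in sign. A second one, below background on both SSCTR arrays, was lower there than in WT by at least 0.51 and than in POF by at least 0.30. Neither change passed, and the brightest Gstt2 probe changed by 0.16 and 0.29 in these comparisons.

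The other soluble transferases did not pass on their brightest probes. Gsto1, of the omega class that reduces dehydroascorbate, averaged 9.59 ± 0.14 in SSCTR, 9.85 ± 0.22 in POF and 10.43 ± 0.43 in WT. Its change in SSCTR against WT was -0.84 ± 0.23 SE (limma adjusted p = 0.0991). Under several alternatives this change passed, among them an offset of 50 (adjusted p = 0.0285) and a mean-variance trend in the prior (adjusted p = 0.00659). Gstp1, the pi class transferase, averaged 11.81 ± 0.02 in SSCTR, 12.14 ± 0.01 in POF and 12.29 ± 0.14 in WT (SD, n = 2 each). Gstk1, which works in mitochondria and peroxisomes, averaged 9.89 ± 0.04 in SSCTR, 10.32 ± 0.12 in POF and 10.39 ± 0.21 in WT. A second Gstk1 probe was lower in SSCTR than in POF by 1.09 (adjusted p = 0.0136) and than in WT by 1.18 (adjusted p = 0.0261) in the fit of every probe, so the probes of this gene disagree on the call. Gstz1, an isomerase of tyrosine breakdown, averaged 9.97 ± 0.01 in SSCTR, 10.10 ± 0.06 in POF and 10.16 ± 0.23 in WT. Gsto2, also of the omega class, averaged 5.36 ± 0.21 in SSCTR, 4.80 ± 0.02 in POF and 5.34 ± 0.14 in WT. Its change in SSCTR against POF was 0.56 ± 0.18 SE (adjusted p = 0.0821), while a second Gsto2 probe changed by -0.44. Gstp2 averaged 6.83 ± 0.07 in SSCTR, 6.90 ± 0.31 in POF and 7.41 ± 0.16 in WT, and Gstp3 was below background on both SSCTR arrays and 1 POF array. Gstp1 and Gstp2 are near-identical copies, and binding of a probe to RNA of the other copy was not tested.

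Among the membrane-bound transferases, Mgst3 rose in SSCTR and Mgst1 and Mgst2 did not pass. Mgst3, which has glutathione transferase and peroxidase activity in the endoplasmic reticulum, had 10.48 and 10.56 in SSCTR, 9.69 and 9.74 in POF, and 9.76 and 9.77 in WT. Both SSCTR arrays lay above the other 4, which were close together. The rise was 1.74-fold over POF (0.80 ± 0.16 SE, limma adjusted p = 0.0130) and 1.69-fold over WT (0.75 ± 0.16, adjusted p = 0.0435). The call against POF ended without any 1 of the 4 arrays compared (adjusted p = 0.0521 to 0.0762). The call against WT ended without any 1 of the 6 arrays (adjusted p = 0.0700 to 0.201). A second Mgst3 probe was 0.93 higher in SSCTR than in POF (adjusted p = 0.0527) and 0.53 higher than in WT (adjusted p = 0.359). Mgst1 averaged 12.12 ± 0.11 in SSCTR, 12.34 ± 0.18 in POF and 12.00 ± 0.09 in WT. Mgst2, which also makes leukotrienes, averaged 9.38 ± 0.13 in SSCTR, 9.48 ± 0.09 in POF and 9.77 ± 0.05 in WT.

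**Figure D2:**
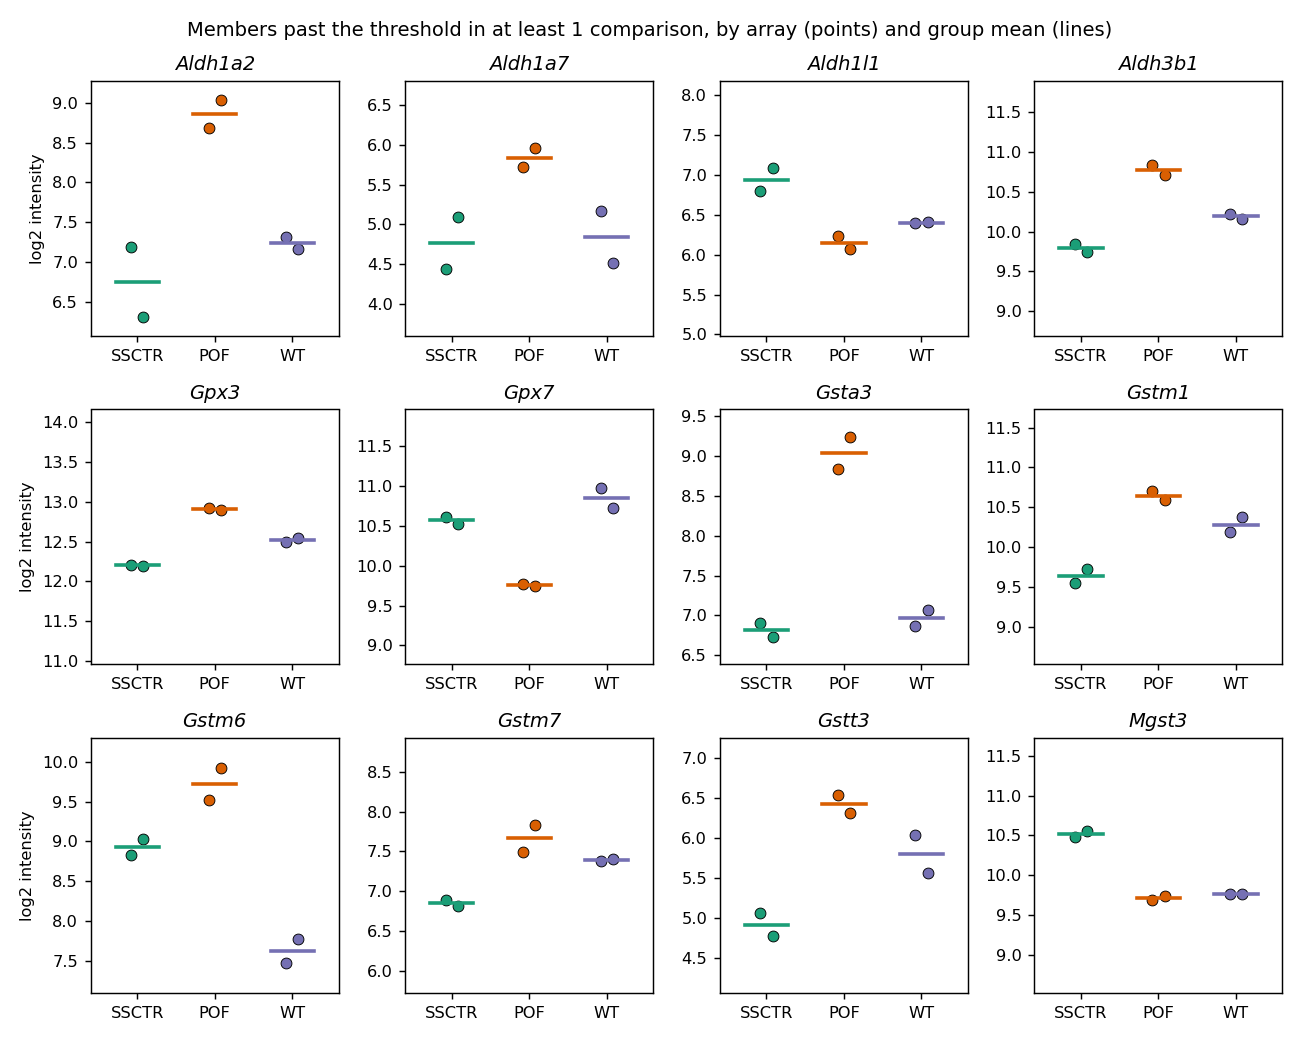
Log2 intensity on each array (points) and group mean (lines) for the 12 members past the threshold in at least 1 comparison, with SSCTR, POF and WT from left to right and a vertical axis of the same span in every panel. In 9 panels the POF mean is the highest of the groups, and in Gpx7, Mgst3 and Aldh1l1 it is the lowest.

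Of the 6 measured glutathione peroxidases, Gpx7 and Gpx3 passed, with opposite signs. Gpx7, a peroxidase of the endoplasmic reticulum, had 10.62 and 10.52 in SSCTR, 9.78 and 9.75 in POF, and 10.97 and 10.73 in WT. Both POF arrays lay below all others. Gpx7 was 2.13-fold lower in POF than in WT (-1.09 ± 0.17 SE, limma adjusted p = 0.00493), which held without any single array. In SSCTR it was 1.75-fold above POF (0.81 ± 0.17, adjusted p = 0.0167), a call that ended without any 1 of the 4 arrays compared (adjusted p = 0.0644 to 0.0900). Gpx8, the other peroxidase of that compartment, averaged 11.23 ± 0.09 in SSCTR, 10.59 ± 0.17 in POF and 10.96 ± 0.15 in WT. Its change in SSCTR against POF was 0.64 ± 0.18 (limma adjusted p = 0.0511). Under some alternatives it passed, among them an offset of 50 (adjusted p = 0.00978). Its other detected probes changed there by 0.28 (adjusted p = 0.409) and 0.59 (adjusted p = 0.0934) in the limma fit of every probe.

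Gpx3, the secreted peroxidase of plasma, moved the other way. It had 12.21 and 12.19 in SSCTR, 12.92 and 12.89 in POF, and 12.50 and 12.54 in WT, in 3 separate steps. Gpx3 did not pass in POF against WT (0.39 ± 0.16 SE, limma adjusted p = 0.164) or in SSCTR against WT (-0.32 ± 0.16, adjusted p = 0.345). It was 1.63-fold lower in SSCTR than in POF (-0.71 ± 0.16 SE, adjusted p = 0.0221), and the call ended without any 1 of the 4 arrays compared (adjusted p = 0.0843 to 0.0986). Gpx1, the cytosolic peroxidase, averaged 13.64 ± 0.12 in SSCTR, 13.76 ± 0.14 in POF and 13.83 ± 0.14 in WT. Gpx4, which reduces phospholipid peroxides and guards against ferroptosis, averaged 13.05 ± 0.11 in SSCTR, 12.98 ± 0.11 in POF and 13.10 ± 0.12 in WT. Neither passed in any comparison, and their changes on the brightest probe lay between -0.20 and 0.07. Gpx2, a peroxidase of epithelia, averaged 5.03 ± 0.22 in SSCTR, 5.70 ± 0.60 in POF and 5.14 ± 0.21 in WT, and its arrays in POF and WT overlapped.

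Among the aldehyde dehydrogenases, Aldh1a2 changed the most. It encodes a retinal dehydrogenase that makes retinoic acid. Aldh1a2 had 7.19 and 6.31 in SSCTR, 8.68 and 9.04 in POF, and 7.31 and 7.16 in WT. Both POF arrays lay above all others, while SSCTR and WT overlapped. It was 4.32-fold lower in SSCTR than in POF (-2.11 ± 0.28 SE, limma adjusted p = 0.00182), which held without any single array. It was 3.08-fold higher in POF than in WT (1.62 ± 0.28, adjusted p = 0.00740), and without POF replicate 3 the change was 1.45 (adjusted p = 0.0740; over all alternatives the adjusted p ranged from 6.19e-05 to 0.0740). The second Aldh1a2 probe, below background on both SSCTR arrays, was lower there than in POF by at least 1.66 on the log2 scale (adjusted p = 0.000292) and higher in POF than in WT by 1.04 (adjusted p = 0.0105). That probe also passed in SSCTR against WT, lower by at least 0.62 (adjusted p = 0.0355), where the brighter probe changed by -0.49 ± 0.28 (adjusted p = 0.424).

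Of the other Aldh1a genes, Aldh1a7 had the same signs as Aldh1a2 in both comparisons with POF and passed in 1 of them, and Aldh1a1 and Aldh1a3 did not pass. Aldh1a1 averaged 10.59 ± 0.09 in SSCTR, 10.39 ± 0.28 in POF and 10.57 ± 0.01 in WT, and its changes lay between -0.18 and 0.20. Aldh1a3 averaged 5.37 ± 0.58 in SSCTR, 5.22 ± 0.04 in POF and 5.10 ± 0.27 in WT. Aldh1a7, a rodent relative of Aldh1a1, had 4.45 and 5.09 in SSCTR, 5.72 and 5.95 in POF, and 5.17 and 4.52 in WT. It was above background on both POF arrays but on 1 of 2 arrays in each other group. It was 2.09-fold lower in SSCTR than in POF (-1.07 ± 0.28 SE, adjusted p = 0.0386), a call that ended without POF replicate 2, POF replicate 3 or SSCTR replicate 2 (adjusted p = 0.111 to 0.198). The log2 change was -0.38 without background correction, a 1.30-fold fall (adjusted p = 0.0494), -0.38 with the authors' values (adjusted p = 0.0504) and -0.56 with an offset of 50 (adjusted p = 0.0267). In POF against WT its change of 0.99 ± 0.28 had an adjusted p of 0.0524, and it passed under 6 of the alternatives, among them an offset of 50 (adjusted p = 0.0358) and a mean-variance trend in the prior (adjusted p = 0.0250).

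Aldh3b1, which oxidises lipid-derived aldehydes, fell in SSCTR against POF. It had 9.84 and 9.74 in SSCTR, 10.84 and 10.71 in POF, and 10.22 and 10.16 in WT, in 3 separate steps. The fall was 1.98-fold (-0.99 ± 0.16 SE, adjusted p = 0.00552), and it held without any single array. In POF against WT the change was 0.59 ± 0.16 (limma adjusted p = 0.0527). Aldh3b1 passed there under several alternatives, among them an offset of 50 (adjusted p = 0.00960) and a mean-variance trend in the prior (adjusted p = 0.00378). Its other detected probes changed by -0.62 (adjusted p = 0.0596) and -1.13 (adjusted p = 0.00739) in SSCTR against POF. Aldh1l1, a formyltetrahydrofolate dehydrogenase of the folate cycle, rose in SSCTR against POF. Aldh1l1 had 6.80 and 7.09 in SSCTR, 6.23 and 6.07 in POF, and 6.39 and 6.41 in WT. The rise was 1.73-fold (0.79 ± 0.18 SE, adjusted p = 0.0217), and it ended without POF replicate 2, POF replicate 3 or SSCTR replicate 3 (adjusted p = 0.0670 to 0.130). Its mitochondrial relative Aldh1l2 was below background on both SSCTR arrays and did not pass.

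The other aldehyde dehydrogenases did not pass on their brightest probes. Aldh2, the mitochondrial enzyme for acetaldehyde, averaged 12.16 ± 0.03 in SSCTR, 12.37 ± 0.08 in POF and 12.34 ± 0.21 in WT. Aldh3a2, the fatty aldehyde dehydrogenase, averaged 10.93 ± 0.02 in SSCTR, 11.09 ± 0.08 in POF and 10.80 ± 0.04 in WT. Aldh6a1, which acts in valine breakdown, averaged 6.91 ± 0.25 in SSCTR, 7.33 ± 0.07 in POF and 6.79 ± 0.19 in WT. Aldh4a1 and Aldh18a1, of proline breakdown and synthesis, and Aldh5a1, which oxidises succinic semialdehyde, changed by between -0.28 and 0.33 over the 3 comparisons. Aldh16a1 and Aldh1b1 changed by between -0.26 and 0.06 and between -0.11 and 0.07. Aldh3a1, known from the cornea, was above background on both POF arrays, 1 SSCTR array and 1 WT array. A second Aldh5a1 probe was lower in POF than in WT by 0.70 (adjusted p = 0.0471 in the fit of every probe).

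**Figure D3:**
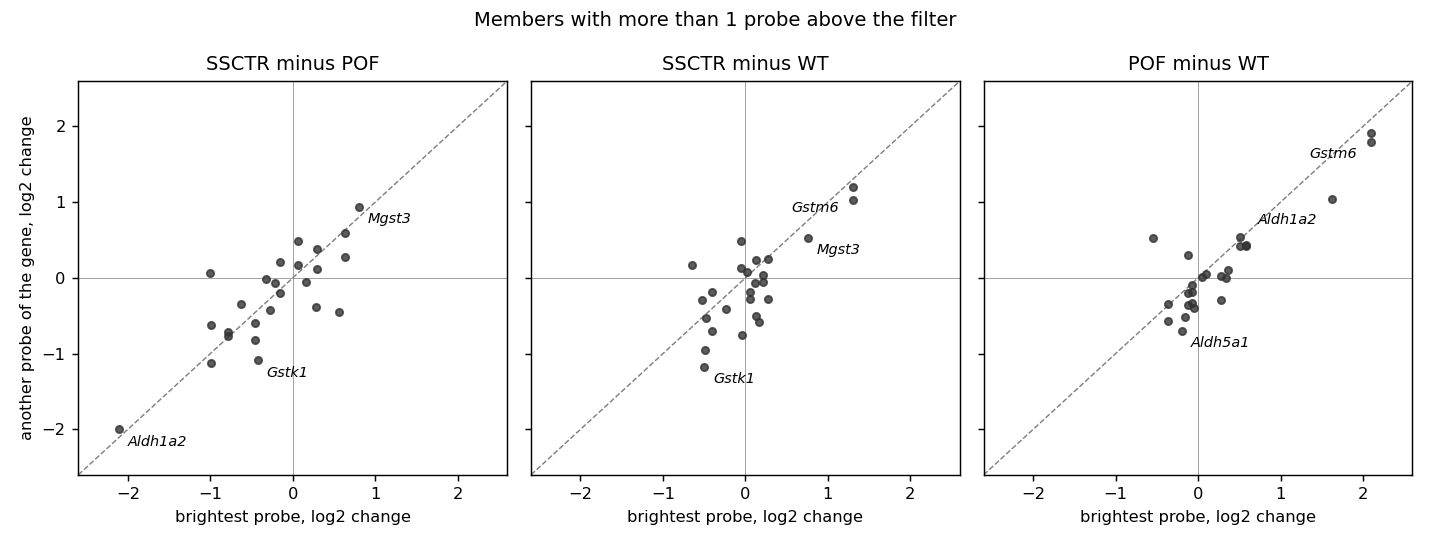
Log2 change of each further detected probe (vertical) against that of the brightest probe of the same gene (horizontal), for the 18 members with more than 1 detected probe, in SSCTR minus POF, SSCTR minus WT and POF minus WT; the dashed line marks equal changes. The further Gstm6 probes lie near the line in all panels, and the second Gstk1 probe lies below it in both SSCTR panels, as the second Aldh1a2 probe does against WT (1.04 against 1.62 in POF minus WT).

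Other targets of NRF2 passed in both directions. Of 16 measured genes on a list of such targets, 3 passed in SSCTR against POF (1 higher, 2 lower), 1 in SSCTR against WT and 2 in POF against WT, which is 18.8%, 6.25% and 12.5%, against 12.6%, 3.31% and 11.9% of all features. The list medians were -0.08, -0.07 and 0.03, against 0.03, -0.01 and -0.03 over all features. Srxn1, the sulfiredoxin that repairs overoxidised peroxiredoxins, had 9.74 and 9.64 in SSCTR, 7.88 and 8.05 in POF, and 7.28 and 7.63 in WT. It was higher in SSCTR than in POF by 1.72 ± 0.19 (limma adjusted p = 0.000603) and than in WT by 2.23 ± 0.19 (adjusted p = 0.000673). Slc7a11, the cystine transporter that supplies cysteine for glutathione, and Ephx1, the microsomal epoxide hydrolase, were higher in POF. Slc7a11 was lower in SSCTR than in POF by 1.61 ± 0.22 (adjusted p = 0.00216) and higher in POF than in WT by 1.55 ± 0.22 (adjusted p = 0.00316), while a second, dimmer Slc7a11 probe changed by -0.16 and 0.04. Ephx1 was lower in SSCTR than in POF by 1.10 ± 0.17 (adjusted p = 0.00401) and higher in POF than in WT by 1.34 ± 0.17 (adjusted p = 0.00183). Nqo1 and Hmox1, further targets, changed by -0.06 and -0.29 in SSCTR against POF and by -0.25 and 0.61 in POF against WT, without a call. Of 6 measured regulators, among them Nfe2l2 (which encodes NRF2), Keap1 and Bach1, 0 passed in limma in any comparison. At an unadjusted p under 0.05 there was 1 in SSCTR against POF (Nfe2l1), 0 in SSCTR against WT and 1 in POF against WT (Nfe2l2). Nfe2l2 changed by 0.66 ± 0.22 in POF against WT (adjusted p = 0.0928).

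Among 20 measured genes of the wider glutathione cycle, 5 passed in SSCTR against POF (2 higher, 3 lower), 1 in SSCTR against WT and 4 in POF against WT (3 higher, 1 lower). These are 25%, 5% and 20% of the list, against 12.6%, 3.31% and 11.9% of all features. The list medians were -0.03, -0.19 and -0.18, against 0.03, -0.01 and -0.03 over all features. Anpep, an aminopeptidase that cleaves the cysteinylglycine left from glutathione, had 6.54 and 6.28 in SSCTR, 8.78 and 9.60 in POF, and 7.07 and 7.31 in WT. It was lower in SSCTR than in POF by 2.78 ± 0.27 (adjusted p = 0.000317) and higher in POF than in WT by 2.00 ± 0.27 (adjusted p = 0.00229). Dpep1, a dipeptidase with the same substrate, and Alox5ap, which serves leukotriene synthesis, shared these directions: -1.10 and -1.29 in SSCTR against POF, and 1.39 and 1.08 in POF against WT. Chac1, which degrades glutathione inside the cell, was higher in SSCTR than in POF by 1.67 ± 0.29 (adjusted p = 0.00645). Glo1, the glyoxalase that removes methylglyoxal, was higher in SSCTR than in POF by 0.84 ± 0.17 (adjusted p = 0.0128) and than in WT by 0.76 ± 0.17 (adjusted p = 0.0492). Ptges, a glutathione-dependent prostaglandin synthase, was lower in POF than in WT by 0.89 ± 0.20 (adjusted p = 0.0202), and its second probe changed by -0.76 (adjusted p = 0.0511).

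Among 12 measured peroxide and superoxide enzymes outside the glutathione family, catalase was lower than WT in both other groups. In each comparison 1 of the 12 passed, which is 8.33%. Of all features 12.6% passed in SSCTR against POF, 3.31% in SSCTR against WT and 11.9% in POF against WT. Cat had 5.62 and 5.68 in SSCTR, 5.33 and 5.47 in POF, and 7.16 and 6.76 in WT. Both WT arrays lay above the other 4. It was lower in SSCTR than in WT by 1.31 ± 0.19 (adjusted p = 0.00919) and in POF than in WT by 1.56 ± 0.19 (adjusted p = 0.00141). Among the other 11 measured genes of the list, which include the superoxide dismutases and some peroxiredoxins, Txnrd2 passed, higher in SSCTR than in POF by 0.80 ± 0.18 (adjusted p = 0.0208), with a second probe at 0.74 (adjusted p = 0.204). The list medians were 0.13 in SSCTR against POF, -0.18 in SSCTR against WT and -0.06 in POF against WT.

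Around the retinal dehydrogenases, 3 of 10 measured retinoid genes passed in SSCTR against POF and the same 3 in POF against WT, each with the sign opposite to that of Aldh1a2. That is 30% of the list, against 12.6% and 11.9% of all features; 0 passed in limma in SSCTR against WT (2 at an unadjusted p under 0.05). Stra6 (the retinol transporter), Crabp2 (a retinoic acid carrier) and Stra8 (a retinoic acid target of germ cells) were lower in POF than in WT, by 1.27, 1.25 and 1.24 (adjusted p = 0.00449, 0.00679 and 0.00274), and higher in SSCTR than in POF, by 1.34, 1.05 and 0.78 (adjusted p = 0.00301, 0.0128 and 0.0195). The median of the 10 genes was 0.33 in SSCTR against POF, 0.05 in SSCTR against WT and -0.19 in POF against WT. Stra8 had 8.18 and 7.93 in SSCTR, 7.30 and 7.24 in POF, and 8.55 and 8.47 in WT. The receptors Rara, Rarg, Rxra and Rxrb and the retinoic acid hydroxylase Cyp26a1 did not pass. Cyp26a1 changed by -0.63 ± 0.19 in SSCTR against POF (adjusted p = 0.0648). At an unadjusted limma p under 0.05 there were 6 genes in POF against WT and 6 in SSCTR against POF. Of these, Lrat, Rara and Cyp26a1 were higher in POF than in WT, as Aldh1a2 was, by 0.81, 0.55 and 0.52. In SSCTR against POF, Cyp26a1 and Rara were lower, as Aldh1a2 was (Rara by 0.47), and Rdh11 was 0.49 higher.

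Other carbonyl and alcohol enzymes were mostly lower in SSCTR where they passed. Of 13 measured genes, 5 passed in SSCTR against POF (1 higher, 4 lower), 3 in SSCTR against WT (all lower) and 1 in POF against WT. These are 38.5%, 23.1% and 7.69% of the list, against 12.6%, 3.31% and 11.9% of all features. The median was -0.21 in SSCTR against POF and 0.06 in POF against WT. Aox3, an aldehyde oxidase, had 5.66 and 5.76 in SSCTR, 7.98 and 7.69 in POF, and 6.56 and 6.53 in WT, in 3 separate steps. It was lower in SSCTR than in POF by 2.13 ± 0.18 (adjusted p = 0.000149), lower in SSCTR than in WT by 0.84 ± 0.18 (adjusted p = 0.0418) and higher in POF than in WT by 1.29 ± 0.18 (adjusted p = 0.00254). Adh7, a retinol-oxidising alcohol dehydrogenase, was below background on both SSCTR arrays. It was at least 2.71-fold lower there than in POF and at least 3.01-fold lower than in WT (limma adjusted p of the fitted changes = 0.000273 and 0.000788). Dcxr, a carbonyl reductase, was lower in SSCTR than in POF by 1.39 ± 0.18 (adjusted p = 0.00140) and than in WT by 0.85 ± 0.18 (adjusted p = 0.0402), and its second probe changed by -0.74 (adjusted p = 0.0471) and -0.34 (adjusted p = 0.454). Adh1 was 0.66 lower in SSCTR than in POF (adjusted p = 0.0381), with a second probe at -0.44 (adjusted p = 0.234). Akr1c14, below background on both POF arrays, was higher in SSCTR by at least 1.31-fold (limma adjusted p of the fitted change = 0.0253).

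**Figure D4:**
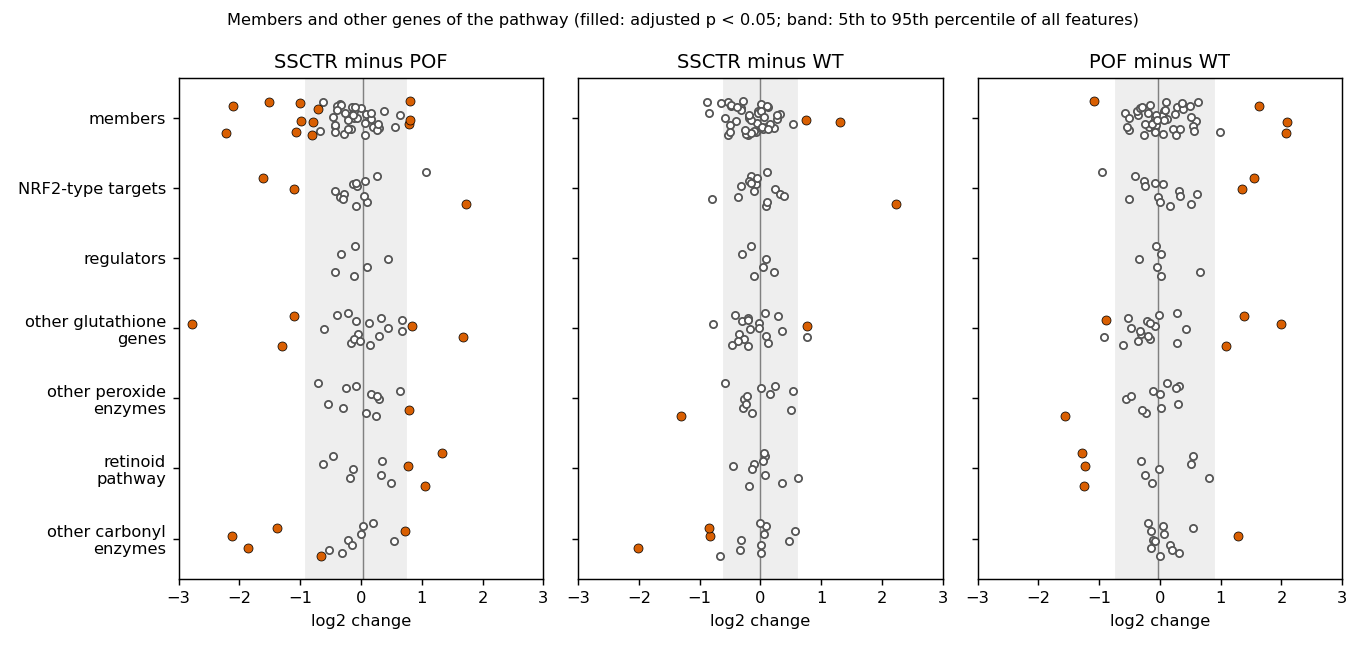
Log2 changes of the 47 measured members and of the measured genes of 6 other lists (rows), in SSCTR minus POF, SSCTR minus WT and POF minus WT, with filled points for a limma adjusted p under 0.05 and a grey band from the 5th to the 95th percentile of all 13872 features. Srxn1 is the far right point among the NRF2-type targets in both SSCTR panels, and Cat the far left point among the other peroxide enzymes against WT.

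Marker lists of several cell types differed in the same comparisons as the members. In SSCTR against POF, 6 of 12 macrophage markers, 5 of 7 oviduct markers and 7 of 9 markers of surface epithelium and mesothelium were lower in SSCTR (1 was higher), and 10 of 10 oocyte markers were higher. In POF against WT, 6 of 12 macrophage markers, 3 of 7 oviduct markers and 6 of 9 surface epithelium markers were higher, and 8 of 10 oocyte markers were lower. Of all features, 7.25% passed as lower and 5.33% as higher in SSCTR against POF. In POF against WT, 6.98% of all features passed as higher and 4.96% as lower. Of the markers of steroid-producing cells, SSCTR exceeded POF in 4 of 7 granulosa, 2 of 6 luteal and 0 of 3 theca markers (3 theca markers had an unadjusted limma p under 0.05, 2 higher and 1 lower). In POF against WT, 1, 2 and 1 markers of these lists were lower (14.3%, 33.3% and 33.3%, where 11.9% of all features passed in either direction). The luteal markers summed to 2462 and 2283 in SSCTR, 1503 and 1395 in POF, and 2032 and 1931 in WT, and the theca markers to 1134 and 1072 in SSCTR, 885 and 720 in POF, and 1312 and 1294 in WT. The granulosa sums were closer, at 21624 and 20592 in SSCTR, 19155 and 20213 in POF, and 20650 and 22435 in WT. The 3 measured adipocyte markers, all dim, summed to 38 and 38 in SSCTR, 74 and 96 in POF, and 57 and 55 in WT. Krt7, a keratin of the surface epithelium, was higher in POF than in WT by 2.41 (adjusted p = 0.000530) and lower in SSCTR than in POF by 2.68 (adjusted p = 0.000233). The part of these cells in the changes of Gsta3, Gstm6, Aldh1a2, Gpx7 and the other members was not tested. In SSCTR against WT, Gstm6 and Mgst3 were higher. There 0 of 7 oviduct and 0 of 9 surface epithelium markers passed in limma (1 and 4 at an unadjusted p under 0.05). The macrophage list had 1 higher and 1 lower. In that comparison 2 of 6 luteal, 1 of 7 granulosa and 1 of 6 endothelium markers were higher, and 1 of 10 oocyte markers was lower. Of all features, 1.81% passed there as higher and 1.50% as lower. Of the endothelium markers, 2 were higher and 1 lower in SSCTR against POF, and likewise in POF against WT.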

How the data were processed

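Of the 2 deposited tables, one gives an average signal (an intensity on a linear scale) and a detection p-value in 9 columns, per the file headers, and the other deposited table holds normalized intensity values. GenomeStudio is the tool named in the submitters' processing notes; its version, the chip and a genome build are not given in the sources used here. The sorted intensities of replicates 2 and 3 lay within 0.542% of each other, so they were already brought to 1 distribution, and quantile normalization of all 9 columns matched 99.99% of the other table's values within 1e-04. In each group replicate 1 equals the average of the other replicates multiplied by a factor (6 distinct factors in WT, 17 in SSCTR and 9 in POF) and was left out.

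Of 45281 probes, 34885 carried 1 symbol, 18 several and 10378 none; symbols of 34807 were checked through Entrez identifiers. Intensities of 6 arrays were processed with neqc of limma 3.58.1 (R 4.3.3; normexp with an offset of 16, quantiles, log2). A probe entered with a detection p under 0.05 on at least 2 arrays (19394 probes, 13872 features). The groups were fitted in 1 limma model, and p-values were Benjamini-Hochberg adjusted over all features; further probes come from a fit of all 19394 probes. A probe below background on both arrays of a group gives a bound ("at least") from the lowest signal among detected probes. The p-value beside a bound is that of the fitted change and does not test the bound. Probes above background numbered 16546 and 16040 in SSCTR, 17855 and 18041 in POF, and 17752 and 18019 in WT. Deviations of equal replicate numbers did not go together (r = -0.00259 for SSCTR and POF, -0.0171 for SSCTR and WT, -0.0628 for POF and WT), so samples were unpaired.

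The members, the lists and the rule for named genes (each member past the threshold with every array, and at most 6 genes a list and comparison, largest change first) were chosen with earlier results of these data known. Genes named beyond that rule, such as Nqo1, Hmox1, Nfe2l2 and H2-Ea, were chosen after their values were seen.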

Additional observations from a re-analysis of the deposited data

How the results depend on the processing

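The counts of members past the threshold and the 18 member changes behind them were recomputed under 15 alternatives (the context genes were not), which gave 268 values for these changes: 226 kept the call, 42 lost it and 0 turned direction. The 8 changes that kept the call under each alternative that gave them a value were Gsta3, Gstm6 and Gpx7 in POF against WT, and Gsta3, Aldh1a2, Aldh3b1, Gstm1 and Gstt3 in SSCTR against POF. Gstt3, like Aldh1a7, has 14 values, since its probe does not pass a detection p under 0.01 on all 6 arrays. In SSCTR against POF the count was 12, and 22 with all 9 deposited columns, where the computed replicate 1 narrows the spread. Of all features, 12.6% and 35.1% passed. In SSCTR against WT the count was 2. It was 6 without background correction, 6 with the authors' normalized values and 4 with an offset of 50. It was 14 with all 9 columns and 6 with a mean-variance trend in the prior. Of all features, 3.31% passed in the main fit and 6.18%, 6.17%, 5.53%, 21.5% and 5.89% under these settings, in that order. In POF against WT the count was 4. It was 8 without background correction, 8 with the authors' values, 7 with an offset of 50, 21 with all 9 columns and 9 with the trend. The shares of all features were 11.9% in the main fit and 16%, 16%, 15.7%, 34.8% and 16.1% under these settings, in that order. Apart from that of the 9 columns, the cause was not tested. Without single arrays the counts ranged from 5 to 12 (SSCTR against POF), 0 to 1 (SSCTR against WT) and 3 to 5 (POF against WT). In each fit without a single array the share of all features past the threshold was lower than with all 6 arrays. With the replicate number as a block the counts were 11 in SSCTR against POF (Aldh1a7 lost), 2 in SSCTR against WT (Gstt3 gained, Mgst3 lost) and 4 in POF against WT. Of all features 11.1%, 2.46% and 10.4% passed there, and the samples share only a number. Without a detection filter Gstm6 and Aldh1a7 in SSCTR against POF did not pass. The changes of Gstt3 and Aldh1a7 in SSCTR against POF shrank to -0.60 and -0.38 without background correction, and those of Aldh1l1 and Gstm7 to 0.43 and -0.53. No setting moved the median of all features by over 0.1. A fold of a dim probe is limited by its signal over background: 9 of the 47 members were below background on at least 1 array.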
